A study of Mus musculus with 47 samples.

Results

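Leukaemic spleens that held little Vpreb1 RNA differed among themselves in their level of Gata2, and the comparison below sets those with much Gata2 RNA against those with little. The arrays were chosen by measured values: an array was kept where Vpreb1, a gene of B cell progenitors, was at or below 7 on the log2 scale, and it was called Gata2-high where Gata2 was above 7 and Gata2-low where it was at or below 7. Of 47 arrays, 32 were kept, 15 of them Gata2-high and 17 Gata2-low, and the 15 arrays with Vpreb1 above 7 were left out. Each array is the spleen of 1 mouse, so n is 15 and 17 unless stated otherwise. The study profiled spleens of mice with leukaemia on Affymetrix Mouse Genome 430 version 2 arrays. Every mouse, on both sides, carried the Cre transgene Tg(ACTB-cre)2Mrt, which is driven by a promoter active in nearly all cells, and the Sleeping Beauty transposase allele Gt(ROSA)26Sortm2(sb11)Njen. Each also carried the mobile transposon, from 1 of the lines TgTn(sb-T2/Onc2)6113Njen and TgTn(sb-T2/Onc2)6070Njen. The labels call every tumour an undifferentiated myeloid leukaemia and every mouse terminal, and no healthy spleen is compared here. Each tumour therefore has its own transposon insertions, and no group below is a targeted mutant.

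Gata2 encodes a zinc finger transcription factor that binds GATA sequences in DNA. It is needed for blood stem and progenitor cells, and it is also made by mast cells and by early megakaryocyte and erythroid cells. As erythroid cells mature, Gata1 takes the place of Gata2 at many of the same DNA sites. ERG, LMO2, TAL1, LYL1, RUNX1 and FLI1 are known to share enhancers with GATA2 in blood progenitors. These are background facts and not results of these arrays.

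The Gata2 probe set that sorted the arrays had lowest, median and highest values of 7.02, 7.93 and 8.61 in Gata2-high arrays, against 5.51, 6.00 and 6.90 in Gata2-low arrays. This separation is the rule itself and is given without a test. The arrays nearest the threshold were those titled Female 25, at 7.02, and Female 3, at 6.90. A second Gata2 probe set, which the rule did not use but which reads the same RNA, ran from 6.11 to 6.88 (median 6.60) in Gata2-high arrays and from 5.40 to 6.01 (median 5.62) in Gata2-low arrays, and these ranges did not overlap. Vpreb1 ran from 5.22 to 6.71 in Gata2-high arrays and from 5.18 to 5.95 in Gata2-low arrays.

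Of the other genes that vary strongly between these spleens, some were unequally spread over the sides. The counts of arrays above 7 are given as descriptions without a test. Erg, an ETS factor of stem cells, endothelium and megakaryocytes, was above 7 in 13 of 15 Gata2-high arrays and in 3 of 17 Gata2-low arrays. Cd3d, a chain of the T cell receptor complex, was above 7 in 1 Gata2-high array and in 6 Gata2-low arrays. S100a8, a neutrophil protein gene, was above 7 in 5 Gata2-high arrays and in 11 Gata2-low arrays. Itgb3, the platelet integrin gene, was above 7 in 0 Gata2-high arrays and in 2 Gata2-low arrays. Eras, a Ras family gene, was above 7 in 5 Gata2-high arrays and in 3 Gata2-low arrays, and Prg2, which encodes an eosinophil granule protein, was above 7 in 1 array of each side. In bulk spleen RNA, fewer cells of a type and less RNA per cell cannot be told apart.

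**Figure D1:**
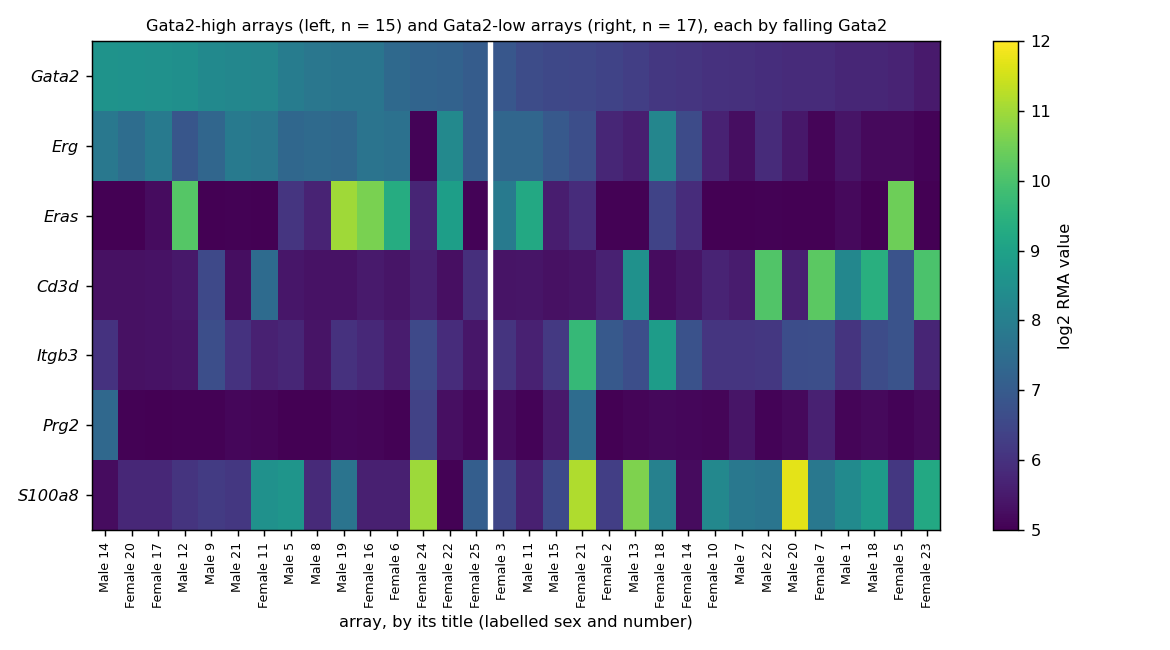
Log2 RMA values (colour scale) of Gata2 and 6 other genes, 1 column per array, with the 15 Gata2-high arrays left of the white line and the 17 Gata2-low arrays right of it, each ordered by falling Gata2. Erg is above 7 in 13 of the arrays on the left and 3 on the right, and Cd3d in 1 on the left and 6 on the right.

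The labels divided less clearly. An insertion in Erg was recorded for 11 of 15 Gata2-high tumours and for 10 of 17 Gata2-low tumours (two-sided Fisher's exact test, p = 0.472, adjusted over the 4 label comparisons p = 0.944). Line 6113 was the label of 4 Gata2-high and 8 Gata2-low mice (p = 0.291, adjusted p = 0.944, same test). Female was the label of 8 Gata2-high and 9 Gata2-low mice (p = 1). Ages, whose unit was not given, averaged 65.2 ± 18.2 in Gata2-high mice and 67.2 ± 16.1 in Gata2-low mice (SD; two-sided permutation test, p = 0.746). These label comparisons stand beside a mismatch: the sex shown by Xist, the non-coding RNA of the inactive X chromosome, matched the sex label in 14 of the 32 arrays and in 23 of all 47. The labels may therefore not belong to the arrays they are listed with, which bears on all label comparisons here and on the tumour identifiers below, while the sides rest on measured values alone. Xist itself was above 7 in 9 Gata2-high and 6 Gata2-low arrays (two-sided Fisher's exact test, p = 0.287). The gap between 3′ and 5′ control probe sets, a sign of RNA breakdown, averaged 1.51 ± 0.43 in Gata2-high arrays and 1.30 ± 0.35 in Gata2-low arrays (SD; two-sided permutation test, p = 0.132).

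Across 18176 genes, with Gata2 and Vpreb1 left out because they chose the arrays, 469 genes were higher in Gata2-high arrays and 428 were lower (limma, Benjamini-Hochberg adjusted p under 0.05). These are 2.58% and 2.35% of the genes tested, 4.94% together, and they are the background against which gene groups are read below. The median difference over all genes was 0.01 (quantile normalization by the authors holds this value near 0). Of all genes tested, 10694 had a positive and 7482 a negative difference, which is the background for the counts of signs below. Most of the changes were small: the median size was 0.23 among the higher genes and 0.27 among the lower genes, and 9 higher and 14 lower genes differed by 1 or more on the log2 scale. For 0 genes were the values of both sides free of overlap, so no gene separated every Gata2-high spleen from every Gata2-low spleen. The counts depended on single arrays. They were lowest at 321 higher genes without Female 23 and at 329 lower genes without Female 7, both Gata2-low arrays with Cd3d above 7. They rose most without either of 2 arrays. Without the Gata2-low array titled Male 11, which had Gata2 at 6.64 and Erg at 7.30, 744 genes were higher and 594 lower. Without the Gata2-high array titled Female 24, which had Gata2 at 7.27 and Erg at 5.08, 748 were higher and 559 lower. Female 24 also had S100a8 at 10.97 and the widest gap between 3′ and 5′ control probe sets of the 32 arrays, at 2.61. With this gap as a covariate over the 32 arrays, 379 genes were higher and 382 lower. Female 24 gave the lowest Gata2-high value of 9 of the 12 genes with the largest rise, and Male 11 gave the lowest Gata2-low value of 9 of the 12 genes with the largest fall.

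Tumour identifiers end in a number whose meaning the labels do not give. It was 7 for 7 Gata2-high and 4 Gata2-low tumours, 8 for 1 Gata2-high and 0 Gata2-low tumours, and 9 for 7 Gata2-high and 13 Gata2-low tumours. With this number as a block, 323 genes were higher and 278 lower. Among the arrays with a 9 alone, 17 were higher and 3 lower. All 29 higher and 31 lower genes past the threshold that are named below kept their direction there, and 3 of the higher ones passed: Tlcd4 at 1.22 ± 0.20 (SE, adjusted p = 0.019 by limma), and Slco2a1 and Ankrd27, which were chosen for their correlation with Gata2 over arrays that include these. Ephx2, also chosen for its correlation with Gata2, differed by 1.34 ± 0.30 (SE, adjusted p = 0.0758 by limma) in those arrays. The arrays with a 9 are part of those over which all these genes, Tlcd4 included, were called. A kept direction was thus largely built in, and the p-values there are no independent support.

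The genes whose levels followed Gata2 most closely over the 32 arrays were mostly dim ones with small differences. Pearson's r is given as a description, and since the sides are cut from Gata2 itself, r within each side is given as well. Niban2, a membrane-linked signalling protein gene, and Cplx2, which encodes a complexin that acts on vesicle fusion, had the highest r, at 0.84 each. Next came Ankrd27, a regulator of vesicle traffic (0.81), the carbonic anhydrase gene Car13 (0.81), the epoxide hydrolase gene Ephx2 (0.80), the fatty acid elongation enzyme Hacd1 (0.80), the transporter gene Slc45a3 (0.79) and the prostaglandin transporter Slco2a1 (0.78). Within Gata2-high arrays r was 0.64 for Niban2, 0.61 for Car13, 0.53 for Slc45a3, 0.44 for Hacd1, 0.36 for Cplx2, 0.35 for Ankrd27, 0.28 for Ephx2 and 0.24 for Slco2a1. Within Gata2-low arrays it was 0.68 for Niban2, 0.39 for Car13, 0.39 for Slc45a3, 0.78 for Hacd1, 0.73 for Cplx2, 0.68 for Ankrd27, 0.60 for Ephx2 and 0.49 for Slco2a1. All 16 values were positive and all were below the r over both sides.

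Because these 8 genes were chosen for their r with Gata2, a difference between the sides was fixed by that choice, and it is given here without a test. Slco2a1 had lowest, median and highest values of 5.77, 6.21 and 6.49 in Gata2-high arrays, against 5.57, 5.78 and 6.05 in Gata2-low arrays, and 13 of 15 Gata2-high arrays exceeded the highest Gata2-low value. The difference was 0.36 ± 0.06 (SE). Cplx2 had values of 5.82, 6.00 and 6.17 in Gata2-high arrays, against 5.58, 5.72 and 5.97 in Gata2-low arrays, a difference of 0.26 ± 0.04 (SE), and 14 of 17 Gata2-low arrays lay below the lowest Gata2-high array. Niban2 differed by 0.42 ± 0.07, Ankrd27 by 0.60 ± 0.10, Car13 by 0.35 ± 0.06 and Slc45a3 by 0.38 ± 0.07 (SE). In the 15 arrays with Vpreb1 above 7, which were in neither side, Slco2a1 had a median of 6.02 and Cplx2 a median of 6.63, above its medians on both sides.

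Promoter sequences of the genes nearest to Gata2 are shown because GATA2 binds DNA at GATA letters. Each runs from 250 bases before to 50 bases after a gene start, from RefSeq on build GRCm38.p6, written 5′ to 3′ on the gene's strand. Capitals mark a match to AGATAA or to AGATAG, and likewise to TGATAA or to TGATAG, on either strand. Cplx2 lies at chr13:54302306-54302605, plus strand, Niban2 at chr2:32875884-32876183, plus strand and Slco2a1 at chr9:103008237-103008536, plus strand.
Cplx2: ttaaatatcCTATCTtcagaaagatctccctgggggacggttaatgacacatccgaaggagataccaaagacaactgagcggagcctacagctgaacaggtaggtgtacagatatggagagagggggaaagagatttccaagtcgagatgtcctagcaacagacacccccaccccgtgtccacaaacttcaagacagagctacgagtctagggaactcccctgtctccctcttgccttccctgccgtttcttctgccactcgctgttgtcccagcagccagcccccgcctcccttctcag
Niban2: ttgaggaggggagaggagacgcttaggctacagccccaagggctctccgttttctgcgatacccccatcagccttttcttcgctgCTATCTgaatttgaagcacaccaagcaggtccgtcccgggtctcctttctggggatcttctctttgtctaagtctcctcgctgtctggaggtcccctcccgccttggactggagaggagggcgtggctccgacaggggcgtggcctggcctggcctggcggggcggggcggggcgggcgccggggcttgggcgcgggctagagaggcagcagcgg
Slco2a1: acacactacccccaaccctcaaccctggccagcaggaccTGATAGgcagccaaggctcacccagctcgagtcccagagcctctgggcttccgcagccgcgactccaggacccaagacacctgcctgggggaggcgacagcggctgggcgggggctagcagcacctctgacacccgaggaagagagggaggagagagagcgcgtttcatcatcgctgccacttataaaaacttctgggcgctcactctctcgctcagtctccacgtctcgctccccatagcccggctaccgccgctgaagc
Of the 8 genes, 6 had a promoter in the RefSeq table and 5 of these held a match, while the 2 Gata2 promoters in the table held 0. The gene without a match was Ankrd27. These are counts of genes with a match in any of their promoters, while the shares below are of promoters. A match is a set of letters and not a binding site. The same letters were in 29.8% of all 32851 promoters and in 22.3% of those of the genes tested. They were in 16.7% of the promoters of the higher genes and in 21.9% of those of the lower genes.

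Ephx2, which encodes the soluble epoxide hydrolase that breaks down lipid epoxides, had the largest rise. Its lowest, median and highest values were 6.25, 7.44 and 8.60 in Gata2-high arrays, against 5.18, 5.74 and 7.36 in Gata2-low arrays. The difference was 1.45 ± 0.22 (SE, adjusted p = 0.000416 by limma), which is 2.73-fold on the linear scale. Ephx2 is also among the genes chosen above for their r with Gata2. That choice fixed a difference between the sides, so this p-value is no independent support. All 15 Gata2-high arrays lay above the Gata2-low median, and 10 of them above the highest Gata2-low array, which was Male 11. The median in the 15 arrays with Vpreb1 above 7 was 5.51.

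Erg rose with Gata2. Its values were 5.08, 7.497 and 8.28 in Gata2-high arrays, against 5.08, 5.68 and 8.21 in Gata2-low arrays, a difference of 1.36 ± 0.30 (SE, adjusted p = 0.00674 by limma), and 14 of 15 Gata2-high arrays were above the Gata2-low median. The exception was Female 24, and the highest Gata2-low array, Female 18, reached the level of the highest Gata2-high arrays. Both Erg probe sets passed the test with the same sign. Tlcd4, a membrane protein gene with a TLC domain, had values of 5.90, 6.77 and 7.32 in Gata2-high arrays, against 4.84, 5.56 and 6.65 in Gata2-low arrays. It differed by 1.10 ± 0.16 (SE, adjusted p = 0.000303 by limma); 11 Gata2-high arrays lay above every Gata2-low array and 13 Gata2-low arrays lay below every Gata2-high array. All 4 of its probe sets passed.

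Asns, the enzyme that makes asparagine, had values of 8.71, 9.19 and 9.64 in Gata2-high arrays, against 5.88, 8.49 and 9.42 in Gata2-low arrays. It differed by 1.17 ± 0.29 (SE, adjusted p = 0.0164 by limma), and the Gata2-low arrays spread widely while the Gata2-high arrays stayed together: the SD was 0.30 in Gata2-high arrays and 1.12 in Gata2-low arrays. The metallothionein gene Mt2, which encodes a metal-binding protein, had values of 9.45, 10.16 and 10.88 in Gata2-high arrays, against 6.88, 9.20 and 10.48 in Gata2-low arrays and differed by 1.02 ± 0.28 (SE, adjusted p = 0.0289 by limma). Rfk, the riboflavin kinase, had values of 8.51, 9.30 and 10.01 in Gata2-high arrays, against 6.49, 8.87 and 9.37 in Gata2-low arrays and differed by 1.05 ± 0.29 (SE, adjusted p = 0.033 by limma). For all of these genes some Gata2-low arrays were as high as Gata2-high ones, and the low end of the range was filled by Gata2-low arrays alone.

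The other genes among the 12 with the largest rise were enzymes, membrane and junction genes. The glutathione transferase Gstm5 had a median of 7.99 in Gata2-high arrays, against 6.497 in Gata2-low arrays and differed by 1.13 ± 0.30 (SE, adjusted p = 0.0228 by limma). The vesicle SNARE gene Vamp5 had a median of 9.19 in Gata2-high arrays, against 8.57 in Gata2-low arrays, a difference of 1.05 ± 0.26 (SE, adjusted p = 0.015 by limma). Tjp1, which encodes the tight junction protein ZO-1, had a median of 8.05 in Gata2-high arrays, against 7.27 in Gata2-low arrays, a difference of 1.01 ± 0.22 (SE, adjusted p = 0.00639 by limma). Hacd1 had a median of 8.09 in Gata2-high arrays, against 7.08 in Gata2-low arrays, a difference of 0.98 ± 0.19 (SE, adjusted p = 0.00325 by limma). Like Ephx2, Hacd1 was also chosen for its r with Gata2, so this p-value is no independent support. The membrane protein gene Emp3 differed by 0.95 ± 0.22 (SE, adjusted p = 0.00912 by limma) and the guanine deaminase Gda by 0.89 ± 0.23 (SE, adjusted p = 0.0201 by limma). In each of these 6 genes the lowest Gata2-high value came from Female 24.

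**Figure D2:**
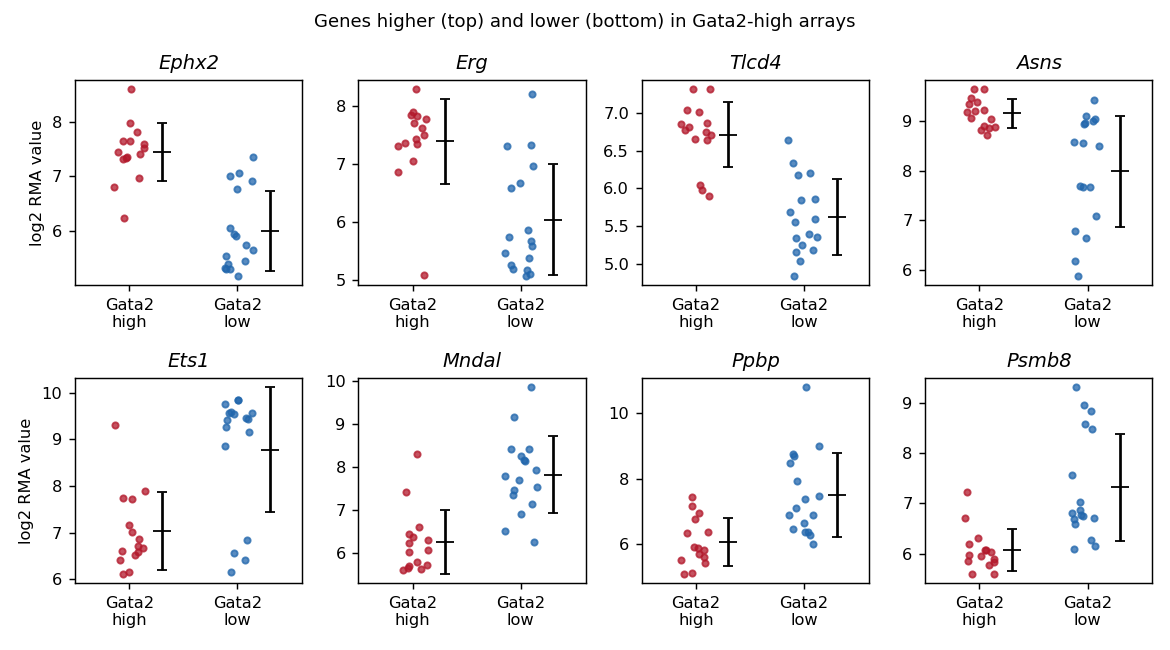
Log2 RMA values of 8 genes, 1 point per array, with mean ± SD beside the points (15 Gata2-high arrays left, 17 Gata2-low arrays right in each panel). The top row rises and the bottom row falls with Gata2, and in every panel some points of both sides share a range; the high Gata2-high point of Ets1 is Female 24.

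Among transcription factors that belong to the GATA family or act beside it, 1 of 25 passed the test upward, 1 downward, and the median difference was 0.01, the same as over all genes. The one that rose was Erg. The one that fell was Gata3, the GATA factor of T cells, with values of 5.07, 5.14 and 5.57 in Gata2-high arrays, against 5.04, 5.60 and 6.87 in Gata2-low arrays, a difference of -0.59 ± 0.16 (SE, adjusted p = 0.0247 by limma); 15 of 15 Gata2-high arrays were below the Gata2-low median. Gata1, the factor of maturing erythroid cells and megakaryocytes, had values of 7.42, 7.89 and 8.30 in Gata2-high arrays, against 5.64, 7.91 and 8.27 in Gata2-low arrays, a difference of 0.46 ± 0.24 (SE, adjusted p = 0.272 by limma) that did not pass. The erythroid factor Klf1 differed by 0.63 ± 0.29 (SE, adjusted p = 0.191 by limma) and Lmo2, a bridge protein between GATA and TAL1 factors, by 0.68 ± 0.28 (SE, adjusted p = 0.143 by limma). Tal1 differed by 0.25 ± 0.26 (SE, adjusted p = 0.586 by limma). Nfe2, a factor of megakaryocytes and erythroid cells, differed by 0.46 ± 0.32 (SE, adjusted p = 0.422 by limma). Without the arrays with Cd3d above 7 these positive differences were smaller or negative: -0.090 for Gata1, 0.069 for Klf1, 0.032 for Lmo2, -0.28 for Tal1 and -0.28 for Nfe2, and 0 of them passed. The Gata2-low arrays spanned 5.64 to 8.27 for Gata1 and the Gata2-high arrays 7.42 to 8.30.

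Several progenitor factors had negative differences that missed the threshold. Mecom, a stem cell factor and leukaemia oncogene, had values of 5.10, 5.23 and 5.39 in Gata2-high arrays, against 5.16, 5.49 and 8.22 in Gata2-low arrays, so only Gata2-low arrays reached above 5.39, and the difference was -0.76 ± 0.23 (SE, adjusted p = 0.0527 by limma). Sox4 differed by -0.95 ± 0.37 (SE, adjusted p = 0.131 by limma), the homeobox gene Meis1 by -0.21 ± 0.07 (SE, adjusted p = 0.0692 by limma) and Fli1, an ETS factor close to ERG, by -0.64 ± 0.27 (SE, adjusted p = 0.156 by limma). The granulocyte factor Gfi1 differed by -0.42 ± 0.17 (SE, adjusted p = 0.138 by limma) and Hhex, a homeobox factor of progenitors, upward by 0.48 ± 0.20 (SE, adjusted p = 0.16 by limma). The other 12 factors of the list lay between -0.29 and 0.30, all short of the threshold.

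The cell types in which Gata2 is known to be active were read through marker lists. At the shares over all genes, 2.58% higher and 2.35% lower, a list of this length holds about 1 call or none in each direction, so counts of 0 to 2 are near the background. Those shares include many dim genes. Among the 5408 genes with a mean above log2 6, tested alone, 417 were higher and 293 lower, which are larger shares. For lists of brighter genes the shares over all genes therefore understate the background. Of 32 stem and progenitor genes, 2 rose and 0 fell (median difference -0.0027). Those that rose were Adgrg1, an adhesion receptor of stem cells, with values of 5.93, 6.26 and 6.61 in Gata2-high arrays, against 5.42, 5.91 and 6.38 in Gata2-low arrays and a difference of 0.40 ± 0.08 (SE, adjusted p = 0.0052 by limma), and the guidance receptor Robo4, at 0.09 ± 0.02 (SE, adjusted p = 0.0095 by limma). The stem cell factor receptor gene Kit had values of 5.46, 5.99 and 6.76 in Gata2-high arrays, against 5.38, 5.82 and 6.90 in Gata2-low arrays and a difference of 0.11 ± 0.12 (SE, adjusted p = 0.628 by limma). Cd34 had values of 5.40, 5.54 and 6.06 in Gata2-high arrays, against 5.30, 5.47 and 6.14 in Gata2-low arrays and a difference of -0.04 ± 0.08 (SE, adjusted p = 0.806 by limma). Kit and Cd34, named here after their values were seen, stayed at or below 7 in all 32 arrays.

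Of 19 mast cell genes, 0 passed in either direction, with 0 of 15 basophil and eosinophil genes. At an unadjusted p under 0.05, 4000 genes of all tested passed, so these zeros are counts after adjustment. The list mean of the mast cell genes ran from 5.26 to 6.01 in Gata2-high arrays and from 5.23 to 5.63 in Gata2-low arrays. Fcer1a, a chain of the IgE receptor, also named after its values were seen, had values of 4.97, 5.19 and 8.91 in Gata2-high arrays, against 4.98, 5.06 and 5.71 in Gata2-low arrays; 2 Gata2-high arrays were above 7 and 0 Gata2-low arrays were. Tph1, the serotonin synthesis enzyme of mast cells, differed by 0.37 ± 0.14 (SE, adjusted p = 0.111 by limma) and the receptor gene Gpr65 by -0.34 ± 0.11 (SE, adjusted p = 0.0557 by limma). Cd200r3 and Il13, the basophil and eosinophil genes with the smallest p, differed by 0.03 and 0.03.

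Of 28 megakaryocyte and platelet genes 1 rose and 1 fell, with a median difference of -0.18 and 22 negative differences. Gp5, a subunit of the platelet von Willebrand factor receptor, had values of 6.41, 7.33 and 7.94 in Gata2-high arrays, against 5.30, 6.53 and 8.10 in Gata2-low arrays, a difference of 0.85 ± 0.25 (SE, adjusted p = 0.0398 by limma). Ppbp, a chemokine of platelet granules, had values of 5.07, 5.87 and 7.43 in Gata2-high arrays, against 5.99, 7.09 and 10.80 in Gata2-low arrays, a difference of -1.44 ± 0.37 (SE, adjusted p = 0.0195 by limma), with all 17 Gata2-low arrays above the Gata2-high median. Itgb3 had values of 5.31, 5.76 and 6.69 in Gata2-high arrays, against 5.64, 6.61 and 9.69 in Gata2-low arrays and a difference of -0.90 ± 0.29 (SE, adjusted p = 0.0613 by limma). Leaving out the 2 arrays with Itgb3 above 7, both Gata2-low, left 620 higher and 535 lower genes.

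Most erythroid genes had positive differences, and 0 passed the test. Of 29, 23 had a positive difference (median 0.16). Ermap, a red cell membrane protein gene, had values of 9.14, 9.66 and 9.86 in Gata2-high arrays, against 6.41, 9.24 and 9.80 in Gata2-low arrays, a difference of 0.79 ± 0.26 (SE, adjusted p = 0.0646 by limma), and the spectrin gene Sptb differed by 0.13 ± 0.05 (SE, adjusted p = 0.146 by limma). The list mean ran from 7.29 to 8.12 in Gata2-high arrays and from 6.22 to 8.27 in Gata2-low arrays, so the low end held Gata2-low arrays alone. Without the arrays with Cd3d above 7 the median of the list was -0.09. Of 18 genes of haem synthesis and iron, 0 passed and 14 were positive. Glrx5, a mitochondrial iron-sulphur protein gene, differed by 0.41 ± 0.14 (SE, adjusted p = 0.0746 by limma) and the porphyrin transporter Abcb6 by 0.34 ± 0.14 (SE, adjusted p = 0.138 by limma).

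The largest falls included genes of lymphocytes and of leukocyte signalling. Ets1, an ETS factor of lymphocytes, had the largest fall, with values of 6.11, 6.71 and 9.30 in Gata2-high arrays, against 6.16, 9.44 and 9.84 in Gata2-low arrays. The difference was -1.75 ± 0.39 (SE, adjusted p = 0.00753 by limma), 3.37-fold lower on the linear scale. Gata2-low arrays fell into a higher and a lower set, and the highest Gata2-high value, 9.30, was that of Female 24. All 4 Ets1 probe sets passed. Over the 60 named genes past the threshold, 38 had more than 1 probe set: every probe set passed in 18 of them and some did in 20. In 37 of the 38 all probe sets had the sign of the gene, Evi2a being the exception. Those with fewer passing included Rfk and Coro1a (1 of 3 each), Psmb8, Ms4a6b, Hk1 and Stat2 (1 of 2 each), Pfkp (1 of 3) and Ccnd2 (2 of 7). Mndal, an interferon-inducible gene of the p200 family, had values of 5.62, 6.09 and 8.30 in Gata2-high arrays, against 6.27, 7.79 and 9.84 in Gata2-low arrays and a difference of -1.56 ± 0.29 (SE, adjusted p = 0.00194 by limma); all 17 Gata2-low arrays lay above the Gata2-high median.

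Coro1a, an actin-binding protein gene of leukocytes, had values of 5.44, 5.95 and 7.83 in Gata2-high arrays, against 5.69, 7.32 and 9.49 in Gata2-low arrays and a difference of -1.43 ± 0.37 (SE, adjusted p = 0.0193 by limma). Lcp2, the adaptor SLP-76 of T cell receptor and platelet signalling, had values of 5.63, 5.95 and 7.21 in Gata2-high arrays, against 5.84, 7.24 and 8.15 in Gata2-low arrays and a difference of -1.09 ± 0.20 (SE, adjusted p = 0.00187 by limma). Lat, another adaptor of that pathway, differed by -0.94 ± 0.26 (SE, adjusted p = 0.0306 by limma), and Sla, an adaptor that restrains antigen receptor signals, by -1.12 ± 0.22 (SE, adjusted p = 0.00369 by limma). Plac8, a myeloid and lymphoid protein gene, differed by -1.29 ± 0.32 (SE, adjusted p = 0.0144 by limma). Anp32a, a nuclear phosphoprotein gene, differed by -1.25 ± 0.24 (SE, adjusted p = 0.00301 by limma), Ms4a6b, a membrane protein gene of lymphocytes, by -1.04 ± 0.23 (SE, adjusted p = 0.00753 by limma), and AI504432 by -1.04 ± 0.16 (SE, adjusted p = 0.000471 by limma). Btg2, which slows cell division, differed by -1.02 ± 0.20 (SE, adjusted p = 0.00325 by limma). Among these genes, between 12 and 15 of the 15 Gata2-high arrays were below the Gata2-low median.

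Cd3d and other T cell genes were higher in a subset of the Gata2-low spleens. Of 29 T and NK cell genes, 2 fell (Ets1 and Lat), 0 rose, and 28 had a negative difference (median -0.31). The list mean ran from 5.35 to 6.02 in Gata2-high arrays and from 5.33 to 7.19 in Gata2-low arrays. Cd3d had values of 5.25, 5.39 and 7.46 in Gata2-high arrays, against 5.24, 5.65 and 10.23 in Gata2-low arrays, a difference of -1.30 ± 0.52 (SE, adjusted p = 0.137 by limma). Without the 7 arrays with Cd3d above 7, the median of the list was -0.02 and 0 of its genes passed. Those arrays were removed for a high T cell gene, so smaller differences in this list were built into the removal. The part of T cells in the other differences was not tested beyond this removal.

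Of the 12 genes with the largest fall, Mndal and Psmb8 are known to be induced by interferon, and 5 more such genes past the threshold were picked after their values were seen; they are examples and not a count of a list. Psmb8, an inducible subunit of the immunoproteasome, had values of 5.59, 5.97 and 7.22 in Gata2-high arrays, against 6.09, 6.80 and 9.31 in Gata2-low arrays, a difference of -1.25 ± 0.29 (SE, adjusted p = 0.00974 by limma), and 11 of 15 Gata2-high arrays were below every Gata2-low array. Psmb9, its partner subunit, had values of 5.81, 6.03 and 6.89 in Gata2-high arrays, against 6.19, 6.73 and 8.60 in Gata2-low arrays and a difference of -0.85 ± 0.17 (SE, adjusted p = 0.00411 by limma). Igtp, an interferon-inducible GTPase, had values of 5.78, 6.44 and 7.65 in Gata2-high arrays, against 6.14, 7.70 and 8.90 in Gata2-low arrays and a difference of -1.003 ± 0.24 (SE, adjusted p = 0.0128 by limma), with all 15 Gata2-high arrays below the Gata2-low median. The related GTPase genes Ifi47 and Gbp7 differed by -0.93 ± 0.22 (SE, adjusted p = 0.0112 by limma) and -0.87 ± 0.21 (SE, adjusted p = 0.0131 by limma). H2-K1, a class I antigen-presenting molecule, had values of 8.41, 9.04 and 9.79 in Gata2-high arrays, against 9.00, 9.69 and 10.80 in Gata2-low arrays and a difference of -0.78 ± 0.17 (SE, adjusted p = 0.00716 by limma). The picked genes are Psmb9, Igtp, Ifi47, Gbp7 and H2-K1.

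Of 19 listed interferon-stimulated genes, 0 rose, 1 fell and all 19 had a negative difference (median -0.32). The one that passed was Stat2, part of the factor that type I interferon activates, at -0.12 ± 0.03 (SE, adjusted p = 0.0215 by limma). Stat2 lay near the floor of the array, with values of 5.13, 5.17 and 5.30 in Gata2-high arrays, against 5.14, 5.30 and 5.545 in Gata2-low arrays. Only 1 of its 2 probe sets passed. Usp18, which removes the ubiquitin-like ISG15, had values of 5.27, 5.90 and 8.24 in Gata2-high arrays, against 5.43, 7.13 and 9.00 in Gata2-low arrays and a difference of -0.99 ± 0.34 (SE, adjusted p = 0.0828 by limma). Xaf1 differed by -0.64 ± 0.22 (SE, adjusted p = 0.089 by limma), Ifit2 by -0.50 ± 0.15 (SE, adjusted p = 0.0559 by limma) and Ifit3 by -0.56 ± 0.23 (SE, adjusted p = 0.137 by limma). Usp18, Xaf1, Ifit2 and Ifit3 were chosen after their values were seen. Without the arrays with Cd3d above 7, 5 of the list passed, namely Ifit2, Ifit3, Stat2, Usp18 and Xaf1, and the median was -0.59, while 0.996% of all genes tested fell. There Usp18 differed by -1.42 ± 0.34 (SE, adjusted p = 0.033 by limma) and Igtp by -1.20 ± 0.25 (SE, adjusted p = 0.015 by limma). Without the arrays with Prg2 or Itgb3 above 7 as well (13 Gata2-high and 9 Gata2-low arrays), 1 passed, where 0.721% of all genes tested fell. With the Erg RNA level as a covariate 0 passed, the median was -0.51 and 0.149% of all genes tested fell.

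Promoters of 3 of these genes that hold the letters are shown with the core letters read by interferon-activated factors, GAAA followed after any 2 bases by GAAA, in capitals on either strand (build GRCm38.p6, RefSeq, the same window). Igtp lies at chr11:58199306-58199605, plus strand, Gbp7 at chr3:142530086-142530385, plus strand and Stat2 at chr10:128270248-128270547, plus strand.
Igtp: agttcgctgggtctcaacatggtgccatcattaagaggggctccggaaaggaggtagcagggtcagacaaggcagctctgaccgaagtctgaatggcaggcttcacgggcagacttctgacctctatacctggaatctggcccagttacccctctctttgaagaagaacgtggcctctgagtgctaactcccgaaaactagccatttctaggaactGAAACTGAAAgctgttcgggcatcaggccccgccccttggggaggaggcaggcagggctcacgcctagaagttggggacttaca
Gbp7: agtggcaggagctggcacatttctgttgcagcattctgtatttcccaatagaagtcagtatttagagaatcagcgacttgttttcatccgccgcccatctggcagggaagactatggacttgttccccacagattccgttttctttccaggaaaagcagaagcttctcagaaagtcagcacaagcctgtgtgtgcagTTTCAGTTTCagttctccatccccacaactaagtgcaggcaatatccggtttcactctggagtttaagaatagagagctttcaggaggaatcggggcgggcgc
Stat2: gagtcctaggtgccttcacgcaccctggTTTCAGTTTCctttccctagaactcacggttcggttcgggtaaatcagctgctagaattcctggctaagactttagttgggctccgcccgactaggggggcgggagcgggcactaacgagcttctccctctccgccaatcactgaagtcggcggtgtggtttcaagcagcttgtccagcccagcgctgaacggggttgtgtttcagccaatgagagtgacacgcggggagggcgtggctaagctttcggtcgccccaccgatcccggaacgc
Of the 11 interferon genes named in the preceding paragraphs besides Mndal, 10 had a promoter in the table. The letters were held by 4 of these (Igtp, Gbp7, Stat2 and Ifit3), while those of Psmb8, Psmb9, Ifi47, H2-K1, Ifit2 and Xaf1 did not hold them. Each Mndal promoter in the table held them too. Of the 19 listed interferon-stimulated genes tested, 14 had a promoter there and 8 of these held the letters. These are again counts of genes with a match in any promoter, while the shares that follow are of promoters. These letters were in 3.44% of all 32851 promoters and in 3.03% of those of the genes tested. They were in 1.93% of the promoters of the higher genes (9 of 466) and in 7.38% of those of the lower genes (34 of 461). The shares are descriptions of letters, not of bound sites.

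A few endothelial genes rose by small amounts. Of 33 genes of endothelium and stroma, 4 rose and 0 fell: the endothelial factor Sox18, at 0.21 ± 0.04 (SE, adjusted p = 0.00301 by limma), Kdr, the VEGF receptor, at 0.21 ± 0.06 (SE, adjusted p = 0.0304 by limma), the scavenger receptor Stab2, at 0.28 ± 0.08 (SE, adjusted p = 0.0373 by limma), and Robo4. The median of the list was 0.03. Sox18 had values of 5.56, 5.74 and 5.92 in Gata2-high arrays, against 5.34, 5.54 and 5.76 in Gata2-low arrays, and 15 of 15 Gata2-high arrays were above the Gata2-low median. All of these genes were dim, and differences near the floor of the array understate changes in RNA.

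Glycolysis genes went both ways. Of 20 genes of hypoxia and glycolysis, 1 rose and 4 fell. Hk1, the hexokinase of red cells and many tissues, had values of 8.46, 8.98 and 9.28 in Gata2-high arrays, against 6.89, 8.47 and 8.99 in Gata2-low arrays and a difference of 0.81 ± 0.19 (SE, adjusted p = 0.0107 by limma). Pkm, a pyruvate kinase gene, had values of 5.56, 5.95 and 6.66 in Gata2-high arrays, against 5.78, 6.67 and 8.04 in Gata2-low arrays and a difference of -0.80 ± 0.19 (SE, adjusted p = 0.0141 by limma). Pdk1, which holds back pyruvate oxidation, differed by -0.56 ± 0.13 (SE, adjusted p = 0.0105 by limma), the phosphofructokinase gene Pfkp, named after its values were seen, by -0.54 ± 0.15 (SE, adjusted p = 0.0303 by limma) and the peptide hormone gene Adm by -0.10 ± 0.02 (SE, adjusted p = 0.0116 by limma). Adm lay near the floor of the array, with values of 5.15, 5.19 and 5.24 in Gata2-high arrays, against 5.18, 5.28 and 5.44 in Gata2-low arrays. Only 1 of its 2 probe sets passed. Every Gata2-high array was below the Gata2-low median of Pkm.

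Of 17 p53 target genes, 2 rose and 2 fell, with a median of 0.01. Phlda3 differed by 0.49 ± 0.12 (SE, adjusted p = 0.0169 by limma) and the stress gene Sesn2 by 0.18 ± 0.05 (SE, adjusted p = 0.0219 by limma), while Btg2 fell and Sesn1, a relative of Sesn2, differed by -0.34 ± 0.07 (SE, adjusted p = 0.00648 by limma). Of 25 leukaemia oncogenes and suppressors, 1 rose (Erg) and 4 fell: Ets1, the survival gene Bcl2 at -0.61 ± 0.14 (SE, adjusted p = 0.00795 by limma), the cyclin gene Ccnd2, named after its values were seen, at -0.87 ± 0.26 (SE, adjusted p = 0.0489 by limma), and Evi2a at -0.24 ± 0.07 (SE, adjusted p = 0.0305 by limma). Bcl2 had values of 5.34, 5.61 and 6.13 in Gata2-high arrays, against 5.45, 6.23 and 7.37 in Gata2-low arrays, with all 15 Gata2-high arrays below the Gata2-low median.

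Of 30 monocyte and macrophage genes, 2 fell and 0 rose. Ctss, a lysosomal protease of antigen-presenting cells, had values of 7.62, 8.02 and 8.51 in Gata2-high arrays, against 7.67, 8.70 and 10.29 in Gata2-low arrays and a difference of -0.66 ± 0.19 (SE, adjusted p = 0.0394 by limma), and Spic, a factor of red pulp macrophages, differed by -0.28 ± 0.07 (SE, adjusted p = 0.0141 by limma). Of 12 genes of the neutrophil primary granule list, all had a negative difference and 1, Plac8, passed. Of 19 late granule and S100 genes, 0 passed and 17 were negative, beside the 5 Gata2-high and 11 Gata2-low arrays with S100a8 above 7. The lists of B cell, plasma cell, dendritic cell and cytokine receptor genes had 0 genes past the threshold. Their members with the smallest p were the B cell factors Pax5 (a difference of 0.032) and Pou2af1 (-0.37), Xbp1 (-0.26) and Tnfrsf13b (-0.24) of plasma cells, H2-DMa (-0.36) and Ccr7 (-0.13) of dendritic cells, and the cytokine signalling genes Ifngr1 (-0.28) and Stat3 (-0.25). Of the late granule genes these were Padi4 (-0.065) and Cybb (-0.33). Of 23 cell cycle genes 1 rose, the mitotic activator Cdc20, with values of 8.92, 9.10 and 9.26 in Gata2-high arrays, against 8.42, 8.78 and 9.37 in Gata2-low arrays and a difference of 0.32 ± 0.06 (SE, adjusted p = 0.00185 by limma). Of 19 immediate early and heat shock genes, the chaperone Hsp90aa1 rose by 0.42 ± 0.10 (SE, adjusted p = 0.0136 by limma) and Zfp36, which destabilises cytokine messages, differed by -0.32 ± 0.07 (SE, adjusted p = 0.00695 by limma).

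**Figure D3:**
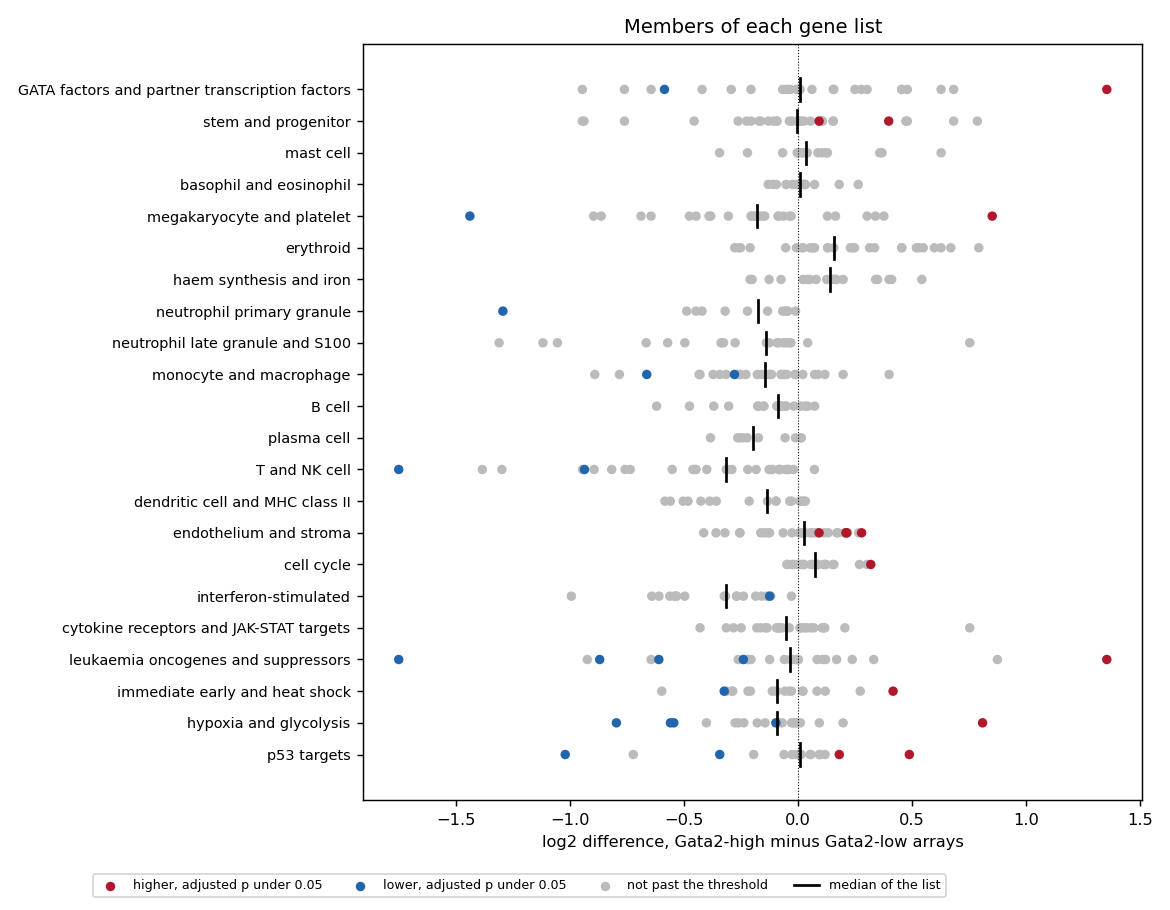
Log2 difference (Gata2-high minus Gata2-low arrays, n = 15 and 17) of every tested member of 22 gene lists, 1 point per gene, with red for genes past the threshold upward, blue downward, grey for the rest and a black bar at the list median. The T and NK cell and interferon-stimulated medians are -0.31 and -0.32, and the erythroid median is 0.16, with no erythroid gene past the threshold.

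Arrays with Cd3d above 7 were unevenly spread, at 1 of 15 Gata2-high and 6 of 17 Gata2-low arrays, so the comparison was repeated without the arrays with Cd3d above 7, leaving 14 Gata2-high and 11 Gata2-low arrays. Then 84 genes were higher and 181 lower, 0.462% and 0.996% of the genes tested, 1.46% together, and 72 of the higher and 128 of the lower genes were also called over all 32 arrays. Of the 29 higher and 31 lower genes past the threshold named in the text, all kept their direction, and 12 higher and 14 lower ones passed again. Of those 12, Niban2, Cplx2, Ankrd27, Car13, Slc45a3 and Slco2a1 had been chosen for their r with Gata2. So had Ephx2, which was named for the size of its rise as well. Ephx2 differed by 1.13 ± 0.24 (SE, adjusted p = 0.0185 by limma) and Tlcd4 by 1.13 ± 0.19 (SE, adjusted p = 0.005 by limma). Psmb9 differed by -0.59 ± 0.11 (SE, adjusted p = 0.0081 by limma) and Mndal by -1.30 ± 0.29 (SE, adjusted p = 0.0226 by limma). Erg, at 0.96 ± 0.34 (SE, adjusted p = 0.16 by limma), and Ets1, at -1.43 ± 0.47 (SE, adjusted p = 0.128 by limma), no longer passed. The same held for Asns, at 0.72 ± 0.22 (SE, adjusted p = 0.0976 by limma), Hacd1, at 0.77 ± 0.21 (SE, adjusted p = 0.057 by limma), Ppbp, at -1.34 ± 0.44 (SE, adjusted p = 0.127 by limma), Coro1a, at -0.76 ± 0.26 (SE, adjusted p = 0.151 by limma), and Gata3, at -0.22 ± 0.07 (SE, adjusted p = 0.117 by limma). The other named genes that no longer passed, with their differences there, were Gstm5 (1.01), Vamp5 (0.48), Rfk (0.41), Mt2 (0.57), Tjp1 (0.58), Emp3 (0.64), Gda (0.75), Gp5 (0.50), Phlda3 (0.31), Hsp90aa1 (0.24), Stab2 (0.27), Kdr (0.14), Sesn2 (0.15) and Robo4 (0.077) among the higher genes and Adm (-0.051), Evi2a (-0.16), Spic (-0.27), Zfp36 (-0.28), Pfkp (-0.34), Pdk1 (-0.46), Bcl2 (-0.52), Ctss (-0.47), Pkm (-0.37), Ccnd2 (-0.78), Lat (-0.61), Anp32a (-0.87) and Plac8 (-0.78) among the lower genes. For 20 of the 60 genes the difference was more than 1.5 times smaller than over 32 arrays: Asns, Vamp5, Rfk, Mt2, Tjp1, Gp5, Phlda3, Hsp90aa1, Kdr, Adm, Pfkp, Gata3, Pkm, Lat, Plac8 and Coro1a, which no longer passed, and Hk1 (0.45), Ms4a6b (-0.59), Lcp2 (-0.72) and Psmb8 (-0.62), which did. Fewer arrays were compared here, so a lost call does not show that the difference was absent. All of these arrays belong to the 32 over which the genes were called, so a kept direction was largely built in. With the arrays with Prg2 or Itgb3 above 7 removed as well, 13 Gata2-high and 9 Gata2-low arrays were left. Ets1 then differed by -1.90 ± 0.44 (SE, adjusted p = 0.0379 by limma) and passed. Erg differed by 1.16 ± 0.34 (SE, adjusted p = 0.0993 by limma) there and did not. In that fit 6 of the 29 higher and 7 of the 31 lower named genes passed.

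Erg moved with Gata2, and a fit with the Erg RNA level as a covariate, Erg itself left out, called 7 genes higher and 27 lower, 0.0385% and 0.149% of 18175. Of the 29 higher genes named, Tlcd4 and Adgrg1 passed in that fit, at 1.08 ± 0.21 (SE, adjusted p = 0.027 by limma) and 0.48 ± 0.11 (SE, adjusted p = 0.0489 by limma), and of the 31 lower ones 0 did. In that fit 2308 genes had an unadjusted p under 0.05. Ets1 differed by -0.34 ± 0.31 (SE, adjusted p = 0.715 by limma) there and Ephx2 by 0.66 ± 0.19 (SE, adjusted p = 0.11 by limma). Since Erg was above 7 in most Gata2-high and few Gata2-low arrays, differences that go with Gata2 and those that go with Erg could be separated only in part.

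**Figure D4:**
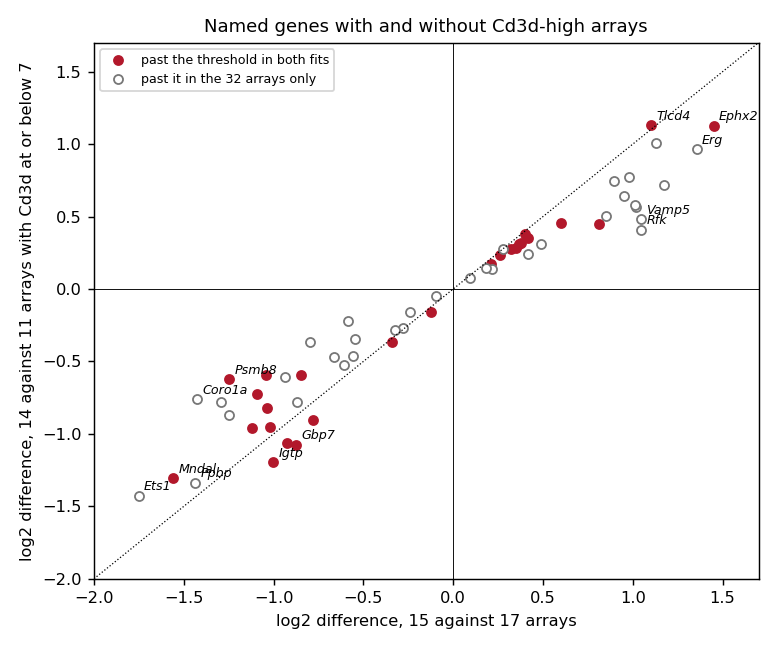
Log2 difference of the 60 named genes past the threshold, over all 32 arrays (horizontal axis, 15 against 17) and over the 25 arrays with Cd3d at or below 7 (vertical axis, 14 against 11), Gata2-high minus Gata2-low; the dotted line marks equal values. Filled points passed in both fits (26 genes) and open points over the 32 arrays alone, and in every gene both differences have the same sign. The 25 arrays are among the 32 over which the genes were called, so equal signs were largely built in.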

How the data were processed

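Per the submitters' processing notes and the labels, the authors ran RMA (background correction, quantile normalization of the arrays, summary of probes to probe sets) with affy in R 2.15 and deposited its output on the log2 scale. Of 45101 probe sets, 34945 named 1 gene, 932 several and 9160 none here. The single-gene probe set with the highest mean over 47 arrays stood for its gene, leaving 18193 genes. A gene was tested if 9 or more of the 47 arrays exceeded log2 5, and 18176 were, with Gata2 and Vpreb1 left out. Most probe sets sit near a common floor (array medians 5.19 to 5.24), so differences of dim genes are compressed, and precision is limited by how many mice there are.

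Differences of each gene were fitted by lmFit and moderated by eBayes (limma 3.58.1, R 4.3.3). P-values were adjusted by Benjamini-Hochberg across every gene tested, with a threshold of 0.05. The procedure was tested on these arrays shuffled over the sides, with known shifts added to some genes. The rates found there are not reported here. Fisher's exact tests and permutation tests (100000 resamples, two-sided) used scipy 1.17.1. A list is described by its counts and median, without a set test. The arrays, the 22 gene lists and the named genes were chosen with earlier results of these data known. Genes were named by rule: the 12 largest differences past the threshold in each direction, up to 4 members of each list past the threshold or 2 with the smallest p where none passed, every GATA family or partner factor, and the 8 genes with the highest r with Gata2; others are said to be chosen after their values were seen. Cd3d, Prg2, Itgb3, Erg, Eras, S100a8 and Xist describe the arrays. Arrays correlated pairwise between 0.889 and 0.990, and 0 pairs were identical. Promoter sequences are from RefSeq (GRCm38.p6); the genome build of the array annotation is not given in the sources used here. Alternatives covered thresholds, filters, probe set choice, normalization, variance model, covariates, marker-defined arrays and single arrays left out.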

Additional observations from a re-analysis of the deposited data

Results flagged for a closer look

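Among the 15 arrays with Vpreb1 above 7, which entered no comparison, 1 had Gata2 above 7. It was the array titled Male 10, with Gata2 at 7.77 and Vpreb1 at 9.82, while the median Gata2 of those 15 arrays was 5.76. The same array had Prg2 at 11.78, S100a8 at 11.99, Itgb3 at 8.16 and Erg at 5.49, and a gap between 3′ and 5′ control probe sets of 2.96.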

How the results depend on the processing

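The counts (469 higher, 428 lower) moved with the definition of the sides: 931 higher and 642 lower genes with Gata2 as a continuous predictor, 1124 and 1023 at a Gata2 threshold of 6.5, and 61 and 44 at 7.5. Xist as a covariate gave 311 and 315, the number in the tumour identifier as a block 323 and 278, and quantile normalization of the 32 arrays again 619 and 411. Without arrays with Cd3d above 7 the counts were 84 and 181. Alternatives chosen after seeing the data gave 51 and 131 without Cd3d, Prg2 or Itgb3 above 7, 186 and 176 without Eras above 7, 7 and 27 with Erg RNA as a covariate, and 17 and 3 in the arrays with 9 in the tumour identifier (7 Gata2-high, 13 Gata2-low). Of the 60 named genes past the threshold, 58 stayed past it with Gata2 as a continuous predictor and 58 at a Gata2 threshold of 6.5. At 7.5 only 13 did. Without Cd3d, Prg2 or Itgb3 above 7 it was 13, and without Eras above 7 it was 37. Leaving out 1 array gave 321 to 748 higher and 329 to 594 lower genes, and 50 of the 60 named genes past the threshold stayed past it each time. The other 10 reached an adjusted p (limma) of 0.0761 (Ccnd2, lost without any 1 of 23 arrays), 0.0678 (Ctss, 14), 0.0676 (Gp5, 17), 0.065 (Stab2, 13), 0.0554 (Rfk, 8), 0.0546 (Lat, 6), 0.0543 (Pfkp, 6), 0.0532 (Evi2a, 5), 0.053 (Kdr, 4) and 0.0504 (Mt2, 2). Some genes that did not pass changed sign. Without Cd3d-high arrays Gata1 was -0.090, Tal1 -0.28, Nfe2 -0.28, Kit -0.0058 and Cd34 0.030. Without Cd3d, Prg2 or Itgb3 above 7, Gata1 was -0.056, Tal1 -0.18, Nfe2 -0.15, Klf1 -0.034 and Cd34 0.083. With Erg RNA as a covariate Tal1 was -0.19, Nfe2 -0.19, Klf1 -0.023, Kit -0.063, Spi1 0.066, Pou2af1 0.032, Tnfrsf13b 0.016 and Cd34 0.028. The cause was not tested. Label comparisons turned direction for line 6113 (p = 1) and female (p = 0.735) at 6.5, and for female (p = 0.266) and age (p = 0.715, two-sided Fisher's exact and permutation tests) at 7.5. No paired analysis was possible because the replicate numbers only count mice and pair none. A comparison within arrays with Vpreb1 above 7, and its interaction, were not run: they were planned only for 2 or more arrays a side, and 1 of those 15 arrays had Gata2 above 7.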
